A study of Mus musculus with 10 samples.

Results

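The miR-23/27/24 miRNAs come from a pair of paralogous polycistrons of the mouse genome, the mir-23a cluster (Mir23a, Mir27a, Mir24-2) and the mir-23b cluster (Mir23b, Mir27b, Mir24-1). The members were chosen by name, as the 9 entries mmu-miR-23a-3p, mmu-miR-23b-3p, mmu-miR-27a-3p, mmu-miR-27a-5p, mmu-miR-27b-3p, mmu-miR-27b-5p, mmu-miR-24-3p, mmu-miR-24-1-5p and mmu-miR-24-2-5p, out of 1907 mature miRNA entries in the deposited table of small RNA read counts. All 9 passed the filter on low values, which asked for 38.5 CPM (reads scaled to 1000000 per library) in at least 2 libraries and kept 481 entries. miR-27b-5p passed through the Ago12_KO and WT libraries alone, miR-27a-5p through those and both Dicer_KO libraries, miR-23b-3p through Ago12_KO, WT and Dicer_KO replicate 2, and miR-24-1-5p through Drosha_KO, Dicer_KO and Ago12_KO libraries, so for these members a difference from the groups at or near 0 was built into the choice.

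The libraries were made from mouse E14 embryonic stem (ES) cells, a 129/Ola line grown without feeders on gelatine in serum and LIF, to profile small RNAs in mutants of the RNA interference pathway. There were 5 groups with 2 libraries each. Dgcr8_KO and Drosha_KO cells are mutant for the partners of the nuclear Microprocessor, Dicer_KO cells for the enzyme that processes hairpins in the cytoplasm, and Ago12_KO cells for both Ago1 and Ago2, Argonaute proteins that bind mature strands. WT cells are the fifth group. The WT libraries carry the codes P25 and P33, the Dicer_KO libraries different codes from each other, and the Dgcr8_KO and Ago12_KO libraries 1 date-like code per group, so preparation and genotype cannot be told apart. Nothing in the labels says that replicates were separate cultures. The p-values therefore measure only how far these libraries spread, which may be technical. The mRNAs of the knocked-out genes are not in a miRNA table, so the genotypes could not be checked on them.

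A polycistron is transcribed as 1 long primary transcript. The Microprocessor, in which Dgcr8 grips the RNA and Drosha cuts it, releases each hairpin from it, Dicer cuts the hairpin to a duplex of a 5p and a 3p strand, and Argonaute proteins keep 1 strand and discard the other. miR-27 and miR-24 are known in mouse ES cells for roles in leaving self-renewal, and miR-23, miR-27 and miR-24 in endothelium, muscle and blood for control of growth and differentiation.

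The mature sequences, shown because they decide which members can be counted apart, were matched in RefSeq (GRCm38.p6) for 8 of the 9 members. Capitals mark the seed (bases 2 to 8 from the 5′ end), which pairs with targets. The 3p strands were:
miR-23a-3p: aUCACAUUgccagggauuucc
miR-27a-3p: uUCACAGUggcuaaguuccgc
miR-27b-3p: uUCACAGUggcuaaguucugc
miR-24-3p: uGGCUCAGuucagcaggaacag
The 5p strands were:
miR-27a-5p: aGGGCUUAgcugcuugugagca
miR-27b-5p: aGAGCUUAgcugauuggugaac
miR-24-1-5p: gUGCCUACugagcugauaucagu
miR-24-2-5p: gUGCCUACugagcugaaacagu
miR-27a-3p and miR-27b-3p share the seed UCACAGU and differ by C19U, counted from the 5′ end, with the other 20 of 21 bases the same. miR-24-3p is the same sequence in both clusters, so its count is the sum over Mir24-2 and Mir24-1 and could not be divided between them. The 5p strands of Mir24-1 and Mir24-2 share the seed UGCCUAC and differ by U17A, U19C, C20A, A21G and G22U, and those of Mir27a and Mir27b differ at 8 of 22 positions, so these entries tell the clusters apart.

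All 6 hairpins lie on the plus strand in GRCm38.p6. The mir-23a cluster spans 404 bases of chromosome 8, with Mir23a at chr8:84208518-84208592, Mir27a at chr8:84208672-84208758 and Mir24-2 at chr8:84208815-84208921. In GENCODE M21, Mir24-2 lies in an exon of the lincRNA Gm26532, and Mir23a and Mir27a in no other annotated gene. The mir-23b cluster spans 792 bases of chromosome 13, with Mir23b at chr13:63300484-63300557 in an intron of the protein-coding gene 2010111I01Rik, Mir27b at chr13:63300712-63300784 and Mir24-1 at chr13:63301208-63301275, both in its exons, and all 3 opposite an intron of Fancc. In each cluster the miR-24 hairpin comes last, 56 bases after Mir27a on chromosome 8 and 423 bases after Mir27b on chromosome 13. Mir3074-2 and Mir3074-1 overlap the miR-24 hairpins on the opposite strand, and miR-3074-5p overlaps miR-24-3p by 20 bases.

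**Figure D1:**
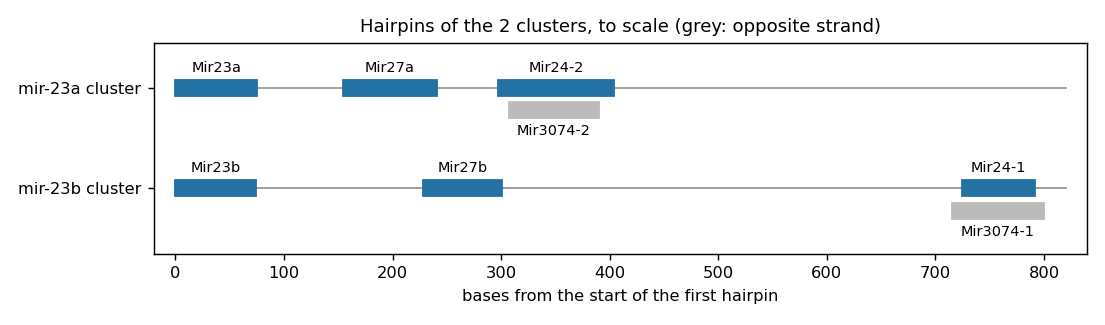
Map of the hairpins of both clusters to scale, with distance in bases from the start of the first hairpin on the x axis; Mir3074 hairpins of the opposite strand are in grey. The mir-23a cluster covers 404 bases and the mir-23b cluster 792 bases, and the gap before the miR-24 hairpin is 56 bases in the mir-23a cluster and 423 bases in the mir-23b cluster.

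Total counts per library ran from 289539 to 408654 in Dgcr8_KO, 39511 to 40306 in Drosha_KO, 37476 to 45222 in Dicer_KO, 229407 to 349312 in Ago12_KO and 1943868 to 2357868 in WT, so that the 3 counts that a count of 0 allows were worth between 1.27 and 80.1 CPM. CPM is a share of the counted miRNA reads. Fewer cells, less miRNA per cell and fewer reads sequenced cannot be told apart, and intervals on counts cover counting error only. The ES cell miRNAs on a list of 8 (the miR-290 to miR-295 and miR-302 families) held 10.3% to 10.5% of the counts in Dgcr8_KO, 11.7% to 12.6% in Drosha_KO, 0.924% to 1.07% in Dicer_KO, 6.18% to 7.07% in Ago12_KO and 12.7% to 13.7% in WT, with miR-302a-3p, miR-302b-3p and miR-302d-3p at 0 in Drosha_KO and Dicer_KO. Sums of 9 fibroblast or feeder miRNAs lay between 1.35% and 3.10% in all 10 libraries, with 1 to 4 of the 9 at 0 in each library, miR-214-3p among them throughout. Those of 4 blood miRNAs were 0.473% to 0.477% in Dgcr8_KO, 0.350% to 0.564% in Drosha_KO, 0.0427% to 0.0597% in Dicer_KO and 0.866% to 1.13% in Ago12_KO, against 0.135% to 0.176% in WT, and those of 2 endothelial miRNAs lay between 0.00221% (Dicer_KO) and 0.223% (Drosha_KO). The part of these cell types in the results was not tested. The Drosha_KO libraries stood apart from each other in 1 block of entries: the 110 miRNAs of the imprinted cluster on chromosome 12 held 0.0152% of replicate 1 and 10.9% of replicate 2, against 19.0% in each WT library. In Dicer_KO, miR-3963 took 32.3% and 25.4% of the counts and miR-6240 14.7% and 18.8%, against at most 0.321% and 0.0907% in WT.

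Across the 5 groups, miR-24-3p was highest in Drosha_KO cells, miR-27b-3p, miR-27a-3p, miR-23a-3p and miR-23b-3p were highest in WT cells, and miR-27a-5p, miR-27b-5p and miR-24-2-5p were highest in Ago12_KO cells. The members together took 0.133% of the counts in both Dgcr8_KO libraries, 1.93% and 1.60% in Drosha_KO, 0.0907% and 0.0987% in Dicer_KO, 0.924% and 1.02% in Ago12_KO, and 1.73% and 1.91% in WT. The makeup of these sums differed between the groups. miR-24-3p made up 44.4% and 47.1% of the members' counts in the Dgcr8_KO libraries and 95.0% and 92.3% in those of Drosha_KO. It made up 4.88% and 10.8% in Dicer_KO, 2.23% and 3.04% in Ago12_KO, and 2.79% and 2.21% in WT. In WT and Ago12_KO the main member was miR-27b-3p, which was entry 11 of the WT profile by mean CPM, and in Drosha_KO it was miR-24-3p, entry 16 there and entry 127 in WT.

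**Figure D2:**
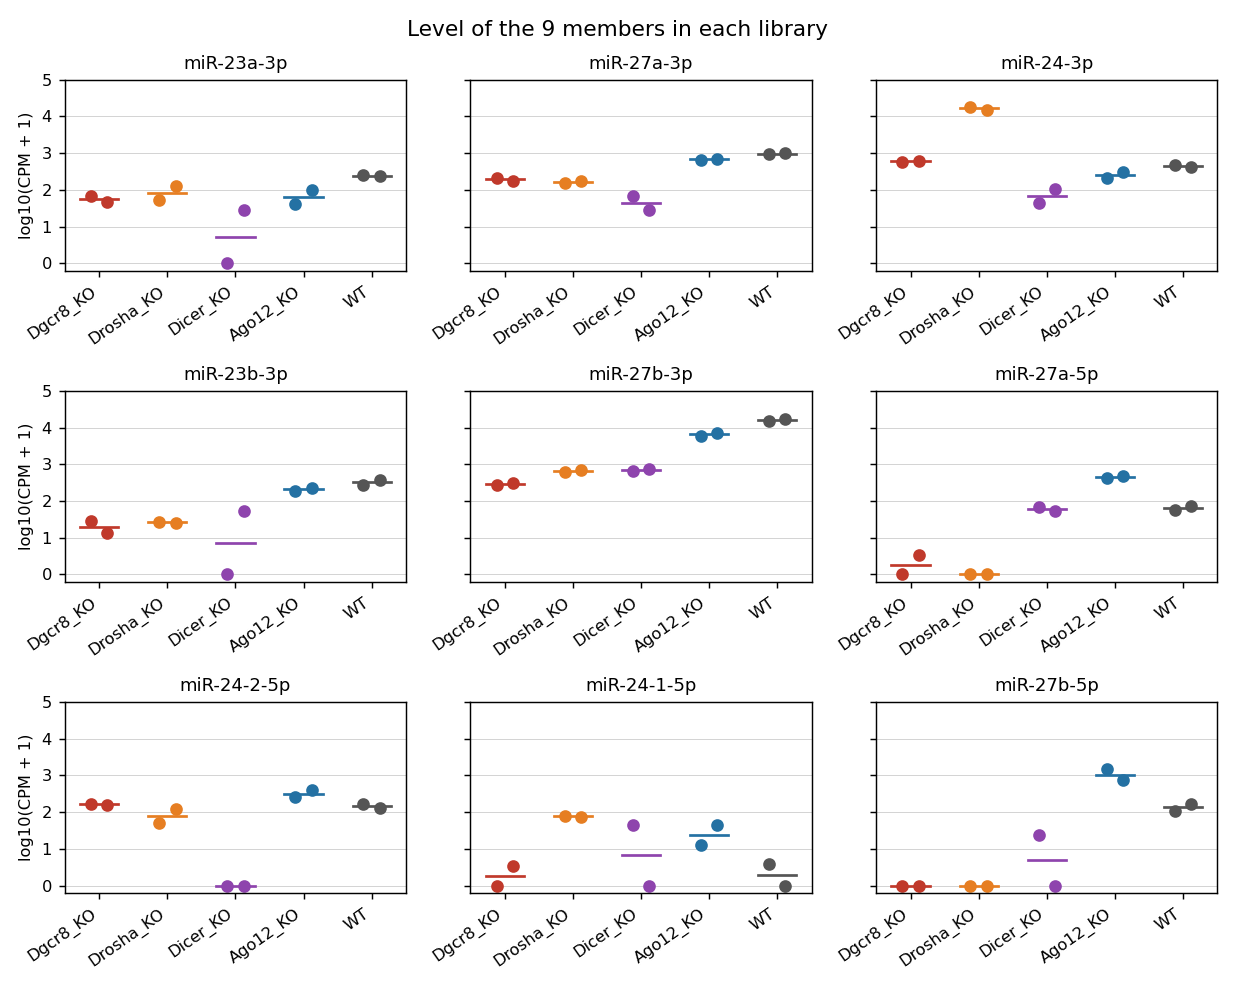
Level of each of the 9 members as log10(CPM + 1) on the y axis, by group; dots are libraries and the line is the mean of the log values of 2 libraries. miR-24-3p stands at 18375 and 14787 CPM in Drosha_KO against 483 and 423 CPM in WT, while miR-27b-3p stands at 607 and 719 CPM in Drosha_KO against 14992 and 16720.3 CPM in WT (with no scaling to library totals the miR-24-3p difference changes sign, to a log2 value of -0.57).

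miR-24-3p, the strand shared by both clusters, was 36.3 times higher in Drosha_KO than in WT cells as a share of the counts. It had 726 and 596 counts in the Drosha_KO libraries, or 18375 and 14787 CPM, against 1140 and 822 counts, or 483 and 423 CPM, in the WT libraries. The groups did not overlap in CPM, and both Drosha_KO libraries lay far above both WT libraries, while their raw counts were below those of WT. The log2 fold change was 5.19 ± 0.37 (SE, n = 2 libraries per group), with an adjusted p of 9.63e-07 (edgeR, quasi-likelihood; Benjamini-Hochberg over the 481 entries), and the ratio of shares had a 95% counting interval of 33.8 to 39.0. The sign depended on scaling to the library total: without scaling the log2 value was -0.57 (edgeR adjusted p = 0.178). The median of all entries was -0.87 in the main scaling, and -0.012 with entries that have no count in 1 group at their bound. Relative to the median without such bounds, miR-24-3p stood at 6.06 in the main scaling and 5.83 without scaling. Without Drosha_KO replicate 1 the log2 fold change was 5.03, and without replicate 2 it was 5.34, both past the threshold in edgeR.

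In Dgcr8_KO cells, which lack the other Microprocessor subunit, the miR-24-3p level did not pass the threshold against WT in the fit of all 10 libraries with library totals. It had 171 and 256 counts, or 591 and 626 CPM, in Dgcr8_KO, against 483 and 423 CPM in WT. The groups did not overlap, yet the log2 fold change of 0.43 ± 0.32 (SE) had an edgeR adjusted p of 0.239, and it reached 0.0346 where only Dgcr8_KO and WT were fitted. Without scaling the value turned to -2.20 and was called lower (edgeR adjusted p = 3.43e-04). Dicer_KO libraries had 2 and 4 counts, or 44.2 and 107 CPM, all below WT, and miR-24-3p fell by 2.63 on the log2 scale (edgeR adjusted p = 6.07e-04). That call rested on the scaling: with DESeq2 size factors as library sizes the value was -1.23 (edgeR adjusted p = 0.0760). Ago12_KO libraries had 72 and 71 counts, or 206 and 309 CPM, below both WT libraries. The log2 fold change of -0.82 ± 0.32 (SE) missed the threshold in edgeR (adjusted p = 0.0507). It passed in edgeR with TMM factors (-1.47, adjusted p = 0.00353), with DESeq2 size factors (-1.07, 0.0191) and where only Ago12_KO and WT were fitted (-0.83, 0.0498). It also passed in DESeq2 (-1.08, adjusted p = 8.39e-04). In order of mean CPM, Dgcr8_KO (609 ± 25.4, SD, n = 2) stood below Drosha_KO (16581 ± 2537; edgeR adjusted p = 2.39e-05 between them), and Ago12_KO (258 ± 73.1) stood above Dicer_KO (75.5 ± 44.2; edgeR adjusted p = 0.0106). The step between Ago12_KO and Dicer_KO was lost with DESeq2 size factors (edgeR adjusted p = 0.878), in DESeq2 (0.907), without miR-3963 and miR-6240 in the totals (0.182) and without Dicer_KO replicate 1 (0.142). The neighbours in between, Dgcr8_KO and WT (453 ± 42.9), and Ago12_KO and WT, did not pass the threshold in the fit of all 10 libraries with library totals. Both passed where only the 2 groups were fitted, as given above.

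Of the 4 other 3p strands of the same transcripts, all fell in Dgcr8_KO and 3 fell in Drosha_KO, where miR-23a-3p missed the threshold. miR-27b-3p, the main product of the mir-23b cluster, had 266 and 303 CPM in Dgcr8_KO and 607 and 719 CPM in Drosha_KO, against 14992 and 16720.3 CPM in WT. All 4 mutant libraries lay below both WT libraries. It fell by 5.80 ± 0.32 in Dgcr8_KO (log2, SE; edgeR adjusted p = 4.04e-07), which is 54.8-fold lower (95% counting interval 47.7 to 63.2), and fell by 4.58 ± 0.31 in Drosha_KO (edgeR adjusted p = 9.63e-07), or 23.8-fold lower. miR-27a-3p, its near-identical paralog from the mir-23a cluster, had 214.1 and 179 CPM in Dgcr8_KO and 152 and 174 CPM in Drosha_KO, against 959.8 and 985 CPM in WT. It fell by 2.31 ± 0.29 in Dgcr8_KO (edgeR adjusted p = 3.78e-05) and fell by 2.58 ± 0.37 in Drosha_KO (edgeR adjusted p = 1.26e-04), the Drosha_KO value resting on 6 and 7 counts.

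The miR-23 strands were less abundant and their values are less exact. miR-23a-3p had 65.6 and 46.5 CPM in Dgcr8_KO and 50.6 and 124 CPM in Drosha_KO, against 255 and 235 CPM in WT. In Dgcr8_KO it fell by 2.14 ± 0.46 (edgeR adjusted p = 0.00156), and in Drosha_KO, with 2 and 5 counts, the log2 fold change of -1.48 ± 0.64 missed the threshold (edgeR adjusted p = 0.0678) and passed it with TMM factors (adjusted p = 0.0142). miR-23b-3p, of the mir-23b cluster, had 27.6 and 12.2 CPM in Dgcr8_KO and 25.3 and 24.8 CPM in Drosha_KO, against 278 and 377 CPM in WT, with no overlap. In Dgcr8_KO it fell by 4.09 ± 0.51 (edgeR adjusted p = 3.55e-05). In Drosha_KO it had 1 count in each library, a ratio to WT of 0.0777 with a counting interval of 0.00940 to 0.281, and was called lower (edgeR adjusted p = 0.00207).

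The 5p strands in the Microprocessor mutants followed their hairpins only in part. miR-27b-5p, usually the discarded strand, had no count in any Dgcr8_KO or Drosha_KO library, against 105 and 170.3 CPM in WT, and was at least 31.3-fold lower in Dgcr8_KO and at least 3.57-fold lower in Drosha_KO (3 counts over the group; edgeR adjusted p = 1.64e-04 and 0.0150). miR-27a-5p had 0 and 1 count in Dgcr8_KO and none in Drosha_KO, against 54.3 and 70.0 CPM in WT. Its ratio to WT in Dgcr8_KO was 0.0233 with a counting interval of 5.89e-04 to 0.131 (edgeR adjusted p = 1.21e-04). In Drosha_KO the strand was at least 1.63-fold lower (edgeR adjusted p = 0.0149), a call that was lost without either Drosha_KO library (adjusted p = 0.0744 and 0.0714). There, 3 counts are worth 75.9 and 74.4 CPM, above the WT level.

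miR-24-2-5p, the 5p strand of the mir-23a cluster's miR-24 hairpin, had 166 and 157 CPM in Dgcr8_KO and 50.6 and 124 CPM in Drosha_KO, against 170.1 and 130 CPM in WT. The Dgcr8_KO libraries lay within the WT range, both Drosha_KO libraries lay below it, and neither log2 fold change passed the threshold (0.10 ± 0.36, edgeR adjusted p = 0.812, and -0.78 ± 0.58, adjusted p = 0.272). The Drosha_KO values rest on 2 and 5 counts, a ratio to WT of 0.577 with a counting interval of 0.231 to 1.20. The Dgcr8_KO value changed sign with TMM factors (-0.21) and without scaling (-2.54). miR-24-1-5p, the 5p strand of the mir-23b cluster's miR-24 hairpin, had 0 and 1 count in Dgcr8_KO and 3 counts in each Drosha_KO library, against 7 and 0 counts in WT. In Drosha_KO that was 75.9 and 74.4 CPM against 2.97 and 0 CPM in WT, and the strand was called higher (log2 fold change 5.38 ± 1.38, edgeR adjusted p = 0.00592), but at -0.21 the sign turned without scaling. The call rests on 6 counts in Drosha_KO, and the strand passed the filter through mutant libraries alone, so a difference from WT was favoured by the choice.

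In all, 6 of the 9 members fell in Dgcr8_KO and none rose, beside 73.4% of the 481 entries called in either direction in edgeR (32.4% higher and 41.0% lower). Of these 6, miR-23b-3p, miR-27a-5p and miR-27b-5p passed the filter without a Dgcr8_KO or Drosha_KO library. Their fall in both mutants, which enters the medians below, was thus favoured by the choice. In Drosha_KO 2 members rose (miR-24-3p and miR-24-1-5p) and 5 fell, beside 57.8% of entries called (26.2% higher and 31.6% lower). Of the 2 that rose, miR-24-1-5p had 6 counts and passed the filter through mutant libraries alone, which favoured its rise. The 5 that fell include miR-23b-3p, miR-27a-5p and miR-27b-5p. Without Drosha_KO replicate 1 or replicate 2 in turn, 6 members were called, 2 of them higher, and without scaling 7 were called, all of them lower. Median log2 fold changes were -2.31 over the members and -0.41 over all entries in Dgcr8_KO, and -2.58 over the members and -0.87 over all entries in Drosha_KO. With entries that have no count in 1 group placed at their bound, these medians were -2.31 and -0.34 in Dgcr8_KO, and -1.48 and -0.012 in Drosha_KO.

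Ratios within a library do not depend on the scaling between libraries, but the fixed pseudocount makes ratios of low counts depend on depth. Since miR-24-3p is summed over both loci, its ratio to a partner mixes the transcripts of both clusters and is not a ratio within 1 of them. For each of 310 pairs of hairpins on 1 strand within 10 kb, the log2 ratio of their main strands (counts + 0.5) was compared with WT by limma. The fit did not weight libraries by counts and gave each pair 1 SE for all mutants. Its SEs and p-values, and ranks by size, therefore do not reflect low counts in a single mutant. miR-24-3p was 2.22 and 2.06 times as abundant as miR-27b-3p in Dgcr8_KO and 30.3 and 20.6 times in Drosha_KO, against 0.0322 and 0.0253 times in WT. Every library of both mutants lay above 1, where miR-24-3p exceeds miR-27b-3p, and both WT libraries lay far below 1. The log2 ratio was higher than in WT by 6.22 ± 0.55 in Dgcr8_KO (SE; limma adjusted p = 2.45e-04) and by 9.74 ± 0.55 in Drosha_KO (limma adjusted p = 1.05e-04).

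The same held toward the other partners. Against miR-27a-3p, miR-24-3p stood at 2.76 and 3.51 times in Dgcr8_KO and 121 and 85.1 times in Drosha_KO, against 0.504 and 0.429 times in WT. The log2 ratio differed by 2.73 ± 0.73 in Dgcr8_KO (limma adjusted p = 0.0229) and by 7.66 ± 0.73 in Drosha_KO (limma adjusted p = 6.18e-04). Over miR-23a-3p the differences were 2.54 ± 0.65 in Dgcr8_KO (limma adjusted p = 0.0198) and 6.59 ± 0.65 in Drosha_KO (adjusted p = 6.18e-04), and over miR-23b-3p 4.46 ± 0.70 (limma adjusted p = 0.00314) and 8.30 ± 0.70 (adjusted p = 4.27e-04). All 4 pairs were thus called in both mutants, beside 38.7% of the 310 pairs in Dgcr8_KO and 25.2% in Drosha_KO. In Drosha_KO these were the 4 largest differences of all 310 pairs by size, with miR-24-3p over miR-27b-3p first, and they share miR-24-3p. The Drosha_KO denominators were 2 and 5 counts for miR-23a-3p and 1 count in each library for miR-23b-3p, so the sizes there are inexact. In Dgcr8_KO the ratio to miR-27b-3p ranked 33 by size. The Drosha_KO background depended on the setting: 78 of the 310 pairs were called here and 129 with a pseudocount of 2.

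Leaving out any 1 library kept the 4 calls in Drosha_KO, where the miR-24-3p over miR-27b-3p difference ran from 9.47 to 10.02 and that over miR-23a-3p from 5.88 to 7.30. In Dgcr8_KO the differences over miR-23a-3p and miR-27a-3p lost their calls when either Dgcr8_KO or either WT library was left out (limma adjusted p between 0.0631 and 0.125), and those over miR-23b-3p and miR-27b-3p kept theirs. The ratios without miR-24 did not pass: miR-27a-3p over miR-23a-3p differed from WT by -0.19 ± 0.95 in Dgcr8_KO and -1.07 ± 0.95 in Drosha_KO (limma adjusted p = 0.881 and 0.504), and miR-27b-3p over miR-23b-3p by -1.77 ± 0.87 and -1.45 ± 0.87 (adjusted p = 0.138 and 0.272). With a pseudocount of 2 this last ratio passed in both mutants, at -2.03 and -2.37 (limma adjusted p = 0.0169 and 0.0125).

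**Figure D3:**
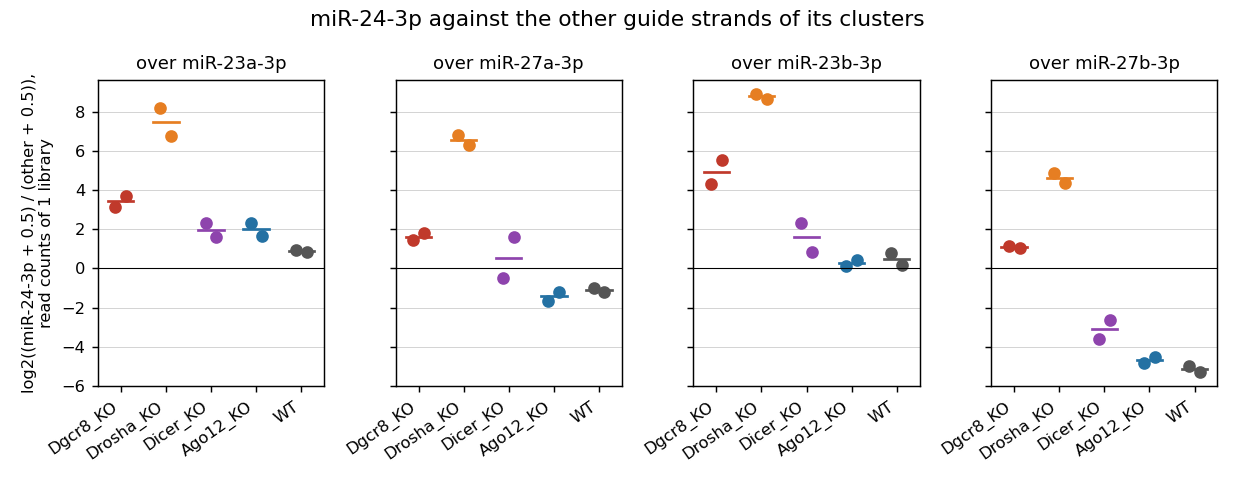
Log2 ratio of miR-24-3p to miR-23a-3p, miR-27a-3p, miR-23b-3p and miR-27b-3p within each library (counts + 0.5) on the y axis, by group, with 1 dot per library. Against miR-27b-3p, the means are 1.09 in Dgcr8_KO and 4.61 in Drosha_KO against -5.13 in WT, and every Dgcr8_KO and Drosha_KO library lies above both WT libraries in all 4 ratios.

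The hairpins of miR-24 show where the 5p strand can separate the loci. Capitals mark the 2 mature strands, 5p first:
Mir24-2: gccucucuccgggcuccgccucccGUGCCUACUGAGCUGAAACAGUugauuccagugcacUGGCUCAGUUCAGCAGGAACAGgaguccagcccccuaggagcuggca
Mir24-1: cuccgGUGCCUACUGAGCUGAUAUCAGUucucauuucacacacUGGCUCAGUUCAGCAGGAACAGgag
The 3p strands are identical and the 5p strands are not. In Drosha_KO the excess of miR-24-3p was not matched by miR-24-2-5p, which made up 0.275% and 0.832% of the counts of miR-24-2-5p and miR-24-3p (95% Clopper-Pearson intervals 0.0333% to 0.989% and 0.271% to 1.93%), against 26.0% and 23.5% in WT. Both Drosha_KO libraries lay far below both WT libraries. The log2 ratio of the 5p to the 3p strand differed by -5.87 ± 0.57 (SE; limma adjusted p = 1.48e-04), the largest of 72 hairpins by size in a comparison where 18.1% of hairpins were called, and by -5.16 without Drosha_KO replicate 1 and -6.58 without replicate 2. The denominator holds miR-24-3p of both loci, so these are not shares within 1 hairpin. Of the 72 hairpins, 6 were called toward 5p and 7 toward 3p in Drosha_KO. miR-24-1-5p made up 0.412% and 0.501% of its counts with miR-24-3p in Drosha_KO (3 counts each), within the WT range of 0.610% and 0% (7 and 0 counts). Its ratio of CPM to WT was 46.2 (counting interval 12.8 to 160.5), beside 36.3 for miR-24-3p. A high ratio was favoured by the filter, which miR-24-1-5p passed through mutant libraries alone.

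In Dgcr8_KO the miR-24-2-5p share was 21.9% and 20%, against 26.0% and 23.5% in WT, and the ratio of strands did not pass the threshold (-0.30 ± 0.57, limma adjusted p = 0.952; 1.39% of 72 hairpins called). In the fit of all 10 libraries with library totals, neither miR-24-2-5p nor miR-24-3p, which comes from both loci, was called in Dgcr8_KO. In contrast, miR-23a-3p and miR-27a-3p, from the same transcript as miR-24-2-5p, fell. The 5p share of Mir27a in Dgcr8_KO, at 0% and 1.35% against 5.35% and 6.63% in WT, missed the threshold in limma (adjusted p = 0.0991).

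Dicer_KO cells had few counts of any member: 41 and 37 summed over all 9, of which 30 and 27 were miR-27b-3p. A set of 7 members fell and none was called higher, beside 55.9% of entries called in edgeR (13.3% higher and 42.6% lower). Of these 7, miR-27b-5p, miR-23a-3p and miR-24-2-5p passed the filter without a Dicer_KO library, which favoured their fall. miR-27b-3p had 663 and 720.5 CPM in Dicer_KO, against 14992 and 16720.3 CPM in WT, and fell by 4.52 ± 0.31 (log2, SE; edgeR adjusted p = 7.21e-07). miR-27a-3p had 66.3 and 26.7 CPM (3 and 1 counts), against 959.8 and 985 CPM, and fell by 4.33 ± 0.46 (edgeR adjusted p = 1.22e-05). Both groups were separate for both strands.

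miR-23a-3p had a single count in Dicer_KO (ratio to WT 0.0491, counting interval 0.00124 to 0.274), miR-23b-3p 2 counts (0.0750, 0.00907 to 0.271) and miR-27b-5p 1 count (0.0900, 0.00227 to 0.503), and all 3 were called lower in edgeR (adjusted p = 0.00350, 0.00210 and 0.0340). miR-24-2-5p had none and was at least 4.19-fold lower (edgeR adjusted p = 0.00266). The calls of miR-23a-3p, miR-23b-3p, miR-27b-5p and miR-24-3p were lost with DESeq2 size factors, which left 3 members called. That of miR-27b-5p was also lost in edgeR when Dicer_KO replicate 1 (adjusted p = 0.108), Dicer_KO replicate 2 (0.180) or WT replicate 2 (0.0656) was dropped, and with miR-3963 and miR-6240 out of the totals (0.135), and that of miR-23a-3p without Dicer_KO replicate 1 (0.0543). miR-24-1-5p had 2 and 0 counts in Dicer_KO, against 7 and 0 in WT. Its log2 fold change of 3.74 ± 2.01 missed the threshold in edgeR (adjusted p = 0.136), was called higher in DESeq2 (5.29, adjusted p = 0.00482) and without WT replicate 1 (6.19, edgeR adjusted p = 0.0305), and turned to -3.18 without Dicer_KO replicate 1. miR-27a-5p was the member of the mir-23a cluster not called lower with library totals. It had 3 and 2 counts, or 66.3 and 53.4 CPM, against 54.3 and 70.0 CPM in WT, with overlapping groups. The log2 fold change of -0.04 ± 0.64 (edgeR adjusted p = 0.982) turned positive with DESeq2 size factors (1.34) and without miR-3963 and miR-6240 in the totals (0.84). Its ratio to WT was 0.985 with a counting interval of 0.317 to 2.33, so a fall within that interval could not be seen. In Dicer_KO 3 counts are worth 66.3 and 80.1 CPM, near the WT level of miR-27a-5p. Its share of the Mir27a strands was 50% and 66.7% in Dicer_KO (of 6 and 3 counts; Clopper-Pearson intervals 11.8% to 88.2% and 9.43% to 99.2%), against 5.35% and 6.63% in WT (log2 ratio difference 4.34 ± 0.56, limma adjusted p = 3.67e-04; 51.4% of 72 hairpins called). For Mir27b, with 1 and 0 counts of the 5p strand in Dicer_KO, the difference was 1.82 ± 0.66 (limma adjusted p = 0.0465). It ran from 1.11 to 2.54 with 1 library left out. Of the 72 hairpins, 19 were called toward 5p and 18 toward 3p in Dicer_KO. No ratio of miR-24-3p to a partner passed the threshold in Dicer_KO, where 11.6% of the 310 pairs were called. The one over miR-27b-3p differed by 2.02 ± 0.55 (limma adjusted p = 0.0573). It passed with a pseudocount of 2 (2.49, limma adjusted p = 0.00507), with a mean of at least 100 counts (0.0404) and among consecutive hairpins alone (0.0166). The medians of the log2 fold changes were -3.74 over the members and -2.78 over all entries, and -3.49 and -0.81 with entries without a count at their bound.

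In Ago12_KO cells 4 members rose, all of them 5p strands, and 2 fell, both of them 3p strands, beside 54.5% of entries called in edgeR (28.7% higher and 25.8% lower). This split depended on scaling: 3 members were higher and 5 lower with TMM factors, 3 and 4 with DESeq2 size factors, and 0 and 6 without scaling. Of the 4 that rose, miR-24-1-5p passed the filter through mutant libraries alone. The blood miRNAs were higher in Ago12_KO (0.866% and 1.13% of counts, against 0.176% and 0.135% in WT). All 3 tested of the 4 were called higher in edgeR, and miR-223-3p was at 0 in the Ago12_KO and WT libraries. Of these 3, 2 were also called higher and 1 lower in Dgcr8_KO, and 2 higher in Drosha_KO. In Ago12_KO, 2 of 6 fibroblast or feeder miRNAs tested were called higher and 0 lower, and both endothelial miRNAs lower. The part of these lists in the result was not tested. miR-27b-5p had 1523 and 728 CPM in Ago12_KO, against 105 and 170.3 CPM in WT. The replicates of Ago12_KO differed by more than their counting error, and both lay above both WT libraries. The strand rose by 3.04 ± 0.45 (log2, SE; edgeR adjusted p = 4.33e-04), 8.99-fold, and the value was 0.27 without scaling (edgeR adjusted p = 0.673).

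miR-27a-5p had 435 and 484 CPM in Ago12_KO, against 54.3 and 70.0 CPM in WT, and rose by 2.88 ± 0.35 (edgeR adjusted p = 9.50e-05), 7.41-fold, with a value near 0 without scaling (-0.0055). miR-24-2-5p had 258 and 392.3 CPM, against 170.1 and 130 CPM in WT. It rose by 1.10 ± 0.35 with an edgeR adjusted p of 0.0225, a call lost with TMM factors (adjusted p = 0.296), with DESeq2 size factors (0.0503), without Ago12_KO replicate 2 (0.0905) and without either WT library (0.0741 and 0.182), and its sign turned without scaling (-1.86). miR-24-1-5p had 4 and 10 counts in Ago12_KO, against 7 and 0 counts in WT, and was called higher (3.82 ± 0.99, edgeR adjusted p = 0.00677), though not without Ago12_KO replicate 2 (adjusted p = 0.137).

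Of the 3p strands, miR-27b-3p had 5926 and 7197 CPM in Ago12_KO, against 14992 and 16720.3 CPM in WT, and fell by 1.27 ± 0.27 (edgeR adjusted p = 0.00173). miR-23a-3p had 40.1 and 95.9 CPM, against 255 and 235 CPM, and fell by 1.91 ± 0.46 (edgeR adjusted p = 0.00434). Both strands had groups that did not overlap. miR-27a-3p had 656 and 702 CPM, against 959.8 and 985 CPM in WT (-0.52 ± 0.27, edgeR adjusted p = 0.125), and miR-23b-3p 186 and 231 CPM, against 278 and 377 CPM (-0.66 ± 0.39, edgeR adjusted p = 0.173). Both lay below WT without overlap and passed with TMM factors (-1.17 and -1.30, edgeR adjusted p = 0.0029 and 0.0153). Both also passed in DESeq2 (-0.76 and -0.90, adjusted p = 1.03e-05 and 0.0310), and miR-27a-3p with DESeq2 size factors (-0.76, edgeR adjusted p = 0.0254). The medians of the log2 fold changes were -0.52 over the members and -0.016 over all entries, and -0.52 and 0 with entries without a count at their bound.

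The balance of strands in Ago12_KO lay further toward 5p. The 5p share of Mir27a was 39.9% and 40.8% in Ago12_KO (Clopper-Pearson intervals 34.9% to 45.0% and 34.9% to 46.9%), against 5.35% and 6.63% in WT. That of Mir27b was 20.4% and 9.19% (18.9% to 22.05% and 7.90% to 10.6%), against 0.694% and 1.01%. For miR-24-2-5p, set against the miR-24-3p of both loci, it was 55.6% and 55.9%, against 26.0% and 23.5% in WT. The log2 ratio of 5p to 3p was higher than in WT by 3.41 ± 0.56 for Mir27a (SE; limma adjusted p = 0.00191), 4.26 ± 0.66 for Mir27b (limma adjusted p = 0.00168) and 1.93 ± 0.57 for miR-24-2-5p over miR-24-3p (limma adjusted p = 0.0195), beside 48.6% of 72 hairpins called in either direction. Of the 72 hairpins, 17 were called toward 5p and 18 toward 3p in Ago12_KO. The call of miR-24-2-5p over miR-24-3p was lost without any 1 of the Ago12_KO and WT libraries (limma adjusted p between 0.0672 and 0.110). The ratios of miR-24-3p to miR-23a-3p, miR-23b-3p, miR-27a-3p and miR-27b-3p differed from WT by -0.32 to 1.11 with no call in limma, beside 25.5% of the 310 pairs.

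**Figure D4:**
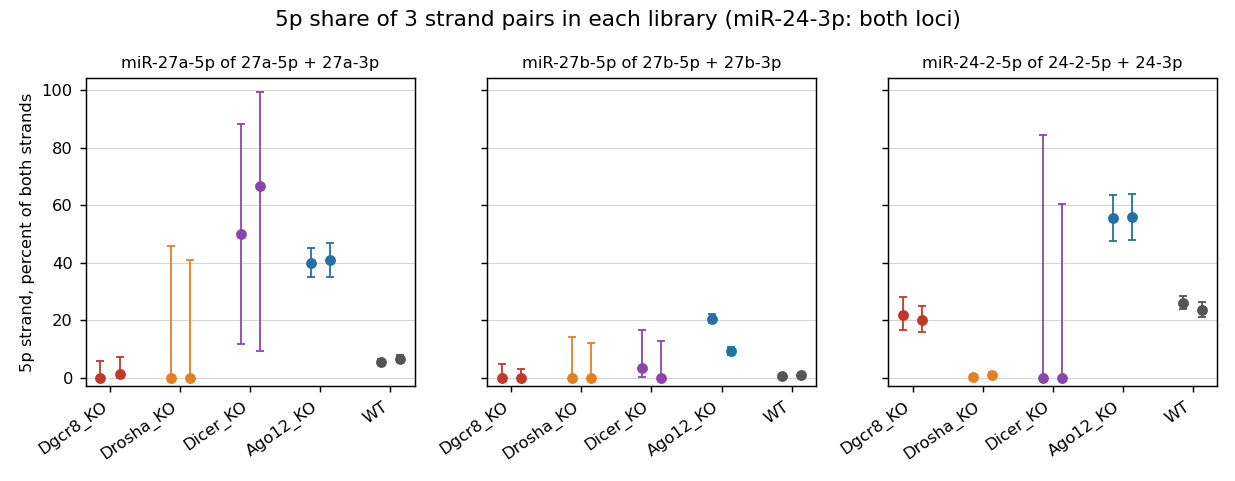
Share of the 5p strand in the summed counts of both strands for Mir27a, Mir27b and the pair miR-24-2-5p and miR-24-3p (the 3p strand summed over both loci), in percent on the y axis, by group, with 1 dot per library and 95% Clopper-Pearson intervals, which cover counting error only. The Ago12_KO shares (39.9% and 40.8%, 20.4% and 9.19%, 55.6% and 55.9%) lie above the WT shares in all 3 panels, the miR-24-2-5p share in Drosha_KO is 0.275% and 0.832%, and several Dicer_KO and Drosha_KO intervals are wide because they rest on few counts.

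The Microprocessor mutants were set against each other to see which members separate them. Dgcr8_KO differed from Drosha_KO in 2 members, both lower, beside 13.9% of entries called in edgeR (5.61% higher and 8.32% lower). miR-24-3p had 591 and 626 CPM in Dgcr8_KO, against 18375 and 14787 CPM in Drosha_KO, and was lower by 27.1-fold (log2 fold change -4.77 ± 0.37, edgeR adjusted p = 2.39e-05). miR-27b-3p had 266 and 303 CPM in Dgcr8_KO, against 607 and 719 CPM in Drosha_KO. It was called lower (-1.22 ± 0.29, edgeR adjusted p = 0.0155), but not with TMM factors (adjusted p = 0.0714), without either Dgcr8_KO library (0.164 and 0.118) or without Drosha_KO replicate 2 (0.0563), and its sign turned without scaling (1.92). miR-24-1-5p, with 1 count in both Dgcr8_KO libraries together against 6 in Drosha_KO, missed the threshold in edgeR (-5.52 ± 1.68, adjusted p = 0.0516). It passed under 10 alternatives, among them no filter (edgeR adjusted p = 9.60e-04), DESeq2 (0.0133), DESeq2 size factors (0.0399) and the replicate block (0.0495).

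Dicer_KO differed from Drosha_KO in 4 members, beside 43.9% of entries called in edgeR (13.5% higher and 30.4% lower). miR-24-3p had 44.2 and 107 CPM in Dicer_KO, against 18375 and 14787 CPM in Drosha_KO, a log2 fold change of -7.82 ± 0.47 (edgeR adjusted p = 2.92e-07). The remaining calls rested on few counts. miR-24-2-5p was at least 2.42-fold lower in Dicer_KO (0 counts against 7; edgeR adjusted p = 0.0238), miR-27a-5p at least 1.61-fold higher (5 counts against 0; adjusted p = 0.0383), and miR-27a-3p lower by 1.75 ± 0.63 (4 counts against 13; adjusted p = 0.0479). The miR-27a-3p call was lost when any 1 of the 10 libraries was left out (edgeR adjusted p between 0.0531 and 0.247), with TMM factors (0.126), with DESeq2 size factors (0.635), with no filter (0.208) and with the replicate block (0.0645). That of miR-27a-5p was lost with no filter (edgeR adjusted p = 0.111), with the block (0.0536) and without any 1 Dicer_KO, Drosha_KO, Ago12_KO or WT library (0.0519 to 0.128). That of miR-24-2-5p was lost with DESeq2 size factors (edgeR adjusted p = 0.0692), without miR-3963 and miR-6240 in the totals (0.0614), and without either Dicer_KO library (0.0959 and 0.0738) or Drosha_KO replicate 2 (0.110). miR-27b-3p stood at 663 and 720.5 CPM in Dicer_KO and 607 and 719 CPM in Drosha_KO (0.06 ± 0.30, edgeR adjusted p = 0.931). It was called higher in Dicer_KO with DESeq2 size factors (1.33, edgeR adjusted p = 0.00649), in DESeq2 (1.31, adjusted p = 2.40e-04) and without miR-3963 and miR-6240 in the totals (0.91, edgeR adjusted p = 0.0374).

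In the order of group means, several neighbouring groups were not told apart with library totals. For miR-27b-3p, Dgcr8_KO (285 ± 26.5 CPM, SD, n = 2) came lowest, Dicer_KO (692 ± 40.4) and Drosha_KO (663 ± 79.2) missed the threshold with library totals but passed under the 3 alternatives just named, and Ago12_KO (6561 ± 899) stood above Dicer_KO (edgeR adjusted p = 8.46e-06) and below WT (15856 ± 1222). For miR-27a-3p Ago12_KO (679 ± 32.7) stood above Dgcr8_KO (196 ± 25.1; edgeR adjusted p = 2.86e-04), and Dgcr8_KO against Drosha_KO (163 ± 15.4) did not pass (adjusted p = 0.742). For miR-23a-3p no neighbouring pair passed in edgeR, and for miR-23b-3p the step between Ago12_KO (208.6 ± 31.8) and Dicer_KO (26.7 ± 37.7) did (adjusted p = 0.0122), though not with DESeq2 size factors (edgeR adjusted p = 0.300), in DESeq2 (0.316), without miR-3963 and miR-6240 in the totals (0.0752) or without Dicer_KO replicate 1 (0.120). For miR-27a-5p the steps between Ago12_KO (459 ± 34.4) and WT (62.1 ± 11.1), and between Dicer_KO (59.9 ± 9.17) and Dgcr8_KO (1.22 ± 1.73), passed in edgeR, the second with an adjusted p of 0.00345 that became 0.126 without scaling. Of all 481 entries, edgeR called 47.4% between Ago12_KO and Dicer_KO (38.5% higher and 8.94% lower in Ago12_KO), 77.5% between Ago12_KO and Dgcr8_KO (45.7% and 31.8%), 62.2% between Ago12_KO and Drosha_KO (36.6% and 25.6%), and 47.0% between Dicer_KO and Dgcr8_KO (15.8% higher and 31.2% lower in Dicer_KO).

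The balance between the paralogous clusters, read as the share of the mir-23a cluster's strand in a pair, also differed between groups. miR-23a-3p made up 70.4% and 79.2% of the miR-23 3p counts in Dgcr8_KO and 66.7% and 83.3% in Drosha_KO (of 3 and 6 counts), 17.7% and 29.3% in Ago12_KO, and 47.9% and 38.4% in WT. Dgcr8_KO and Drosha_KO libraries all lay above WT and Ago12_KO libraries below it. miR-27a-3p made up 44.6% and 37.1% of the miR-27 3p counts in the Dgcr8_KO libraries, 20% and 19.4% in those of Drosha_KO, 9.09% and 3.57% in Dicer_KO, 9.96% and 8.89% in Ago12_KO, and 6.02% and 5.56% in WT. Only Dicer_KO overlapped WT in this share. With 2 libraries against 2, the exact two-sided permutation test cannot give a p below 0.333, which it gave for each comparison with WT without overlap, so none of these shares could pass 0.05 in that test. No model of the shares was fitted. miR-27a-3p and miR-27b-3p differ at 1 base, and the sources used here do not give how reads that match both were assigned.

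The 5p strands of the miR-24 hairpins, which separate the loci, gave 100% and 98.5% miR-24-2-5p in Dgcr8_KO, 40% and 62.5% in Drosha_KO (of 5 and 8 counts; Clopper-Pearson intervals 5.27% to 85.3% and 24.5% to 91.5%), 95.7% and 90% in Ago12_KO, and 98.3% and 100% in WT. Drosha_KO lay below WT in both libraries. Outside Drosha_KO and Dicer_KO, where 13 and 2 counts were left, the mir-23a cluster's hairpin thus supplied nearly all 5p counts of miR-24. The mir-23b cluster supplied most miR-27 counts in WT, and the sum of its strands other than miR-24-3p was 1.54% and 1.73% of WT counts, against 0.144% and 0.142% for the mir-23a cluster.

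**Figure D5:**
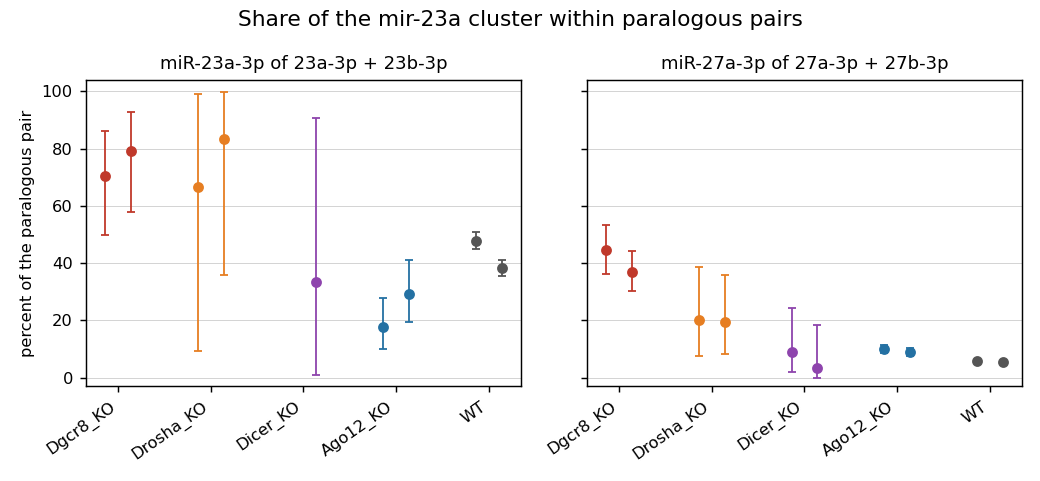
Share of miR-23a-3p in the counts of miR-23a-3p and miR-23b-3p, and of miR-27a-3p in the counts of miR-27a-3p and miR-27b-3p, in percent on the y axis, by group, with 1 dot per library and 95% Clopper-Pearson intervals. The miR-27a-3p share is 44.6% and 37.1% in Dgcr8_KO and 20% and 19.4% in Drosha_KO, against 6.02% and 5.56% in WT.

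Across the 10 libraries, the profile of miR-24-3p was not close to those of its transcript partners. The Pearson correlation of its log2 CPM (prior count 2), given as a description over libraries that share groups and depth, was -0.22 with miR-27b-3p, 0.0805 with miR-27a-3p, -0.0279 with miR-23b-3p and 0.456 with miR-23a-3p. miR-23b-3p and miR-27b-3p had 0.853, and miR-23a-3p and miR-27a-3p 0.696. Among 319 other entries with a mean of at least 50 CPM, the nearest to miR-24-3p were miR-3068-5p (0.939), miR-290a-5p (0.932) and miR-34a-5p (0.920). miR-3068-5p averaged 99.96 CPM in Dgcr8_KO and 8916 CPM in Drosha_KO, was at 0 in Dicer_KO and Ago12_KO, and averaged 2.73 CPM in WT. The nearest to miR-27b-3p were miR-25-3p (0.973), miR-99b-5p (0.948) and miR-19a-3p (0.947), and those to miR-27a-3p were miR-20a-5p (0.970), miR-466e-3p and miR-466a-3p (0.967 each). For miR-23a-3p they were miR-340-5p (0.913), miR-126a-3p (0.911) and miR-140-3p (0.908), and for miR-23b-3p miR-666-5p (0.916), miR-25-3p (0.900) and miR-379-3p (0.888).

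The other strands of these hairpins were near the limit of counting. miR-23a-5p had 8 and 1 counts in Ago12_KO and 1 and 2 in WT, and miR-23b-5p 4 and 8 counts in Ago12_KO and 5 and 2 in WT, with none in Dgcr8_KO, Drosha_KO or Dicer_KO. miR-3074-5p, opposite miR-24-3p, had at most 2 counts in a mutant library and 40 and 24 in WT. Its 2 and 0 counts in Drosha_KO stood beside 726 and 596 counts of miR-24-3p.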

How the data were processed

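Small RNA was sequenced in 5 groups with 2 samples each. TruSeq libraries were made from total RNA, per the labels' protocols. The values are raw counts per mature miRNA entry, deposited by the authors as whole numbers. The submitters' processing notes name Bowtie and mm10. The aligner's version, the annotation release and the handling of multiply matching reads were not given in the sources used here, of which multiple matching bears on miR-24-3p and on miR-27a-3p against miR-27b-3p.

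Counts were fitted over all 10 libraries with edgeR 4.0.16 in R 4.3.3 (quasi-likelihood, column totals as library sizes, 5 residual degrees of freedom, filterByExpr with a minimum count of 10 and total of 15), and p-values were adjusted by Benjamini-Hochberg over 481 entries per comparison, with a threshold of 0.05. A standard error is the absolute log2 fold change over the square root of F. Log2 ratios (pseudocount 0.5) of strands with a mean of at least 20 counts over all libraries were tested with limma 3.58.1 over all pairs. These fits were not weighted by counts. Shares have 95% Clopper-Pearson intervals (scipy 1.17.1). DESeq2 1.42.0 was an alternative. Scripts were checked on simulated data. A count of 0 allows 3 counts. Members, the 4 marker lists (embryonic stem cell, fibroblast or feeder, blood, endothelial) and tests were chosen with earlier results of these data known. All 9 members are named, with the 5p strands of Mir23a and Mir23b, miR-3074, and the 3 other entries of at least 50 CPM with the highest correlation to each of the 5 members miR-23a-3p, miR-23b-3p, miR-27a-3p, miR-27b-3p and miR-24-3p. No column of the table was left unused. Sequences and positions are from RefSeq GRCm38.p6, and gene context from GENCODE M21.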

Additional observations from a re-analysis of the deposited data

How the results depend on the processing

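Counts of calls and the members' differences named in the text were recomputed with other scalings (TMM factors, DESeq2 size factors as edgeR library sizes, none) and other filters (none, a mean of at least 10 CPM). Further settings were a fit of the compared groups alone, a block for the replicate number, DESeq2, and 1 library left out at a time. Entries whose counts shared a common divisor were also divided by the greatest one. No member was among these entries, so miR-24-3p was not divided between its loci. Totals without miR-3963 and miR-6240 were added after seeing the data. A group left with 1 library was taken to spread as the other groups do. Depth limits the Drosha_KO and Dicer_KO values, where 3 counts are worth 66.3 to 80.1 CPM, and rankings of weak members there rest on few counts. Unless said otherwise the causes of the changes below were not tested. TMM factors moved the median log2 fold change of all entries against WT by -0.31 in Dgcr8_KO cells, -0.60 in Drosha_KO cells, -0.28 in Dicer_KO cells and -0.65 in Ago12_KO cells, DESeq2 size factors by 1.11 in Dicer_KO, -0.23 in Ago12_KO and 0.12 in Drosha_KO, totals without miR-3963 and miR-6240 by 0.69 in Dicer_KO, and no scaling by -2.62, -5.53, -4.75 and -2.87 in Dgcr8_KO, Drosha_KO, Dicer_KO and Ago12_KO, by its construction.

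Against WT, no scaling gave 435 called entries in Dicer_KO (269 with library totals). Entries called higher and lower in Dgcr8_KO were 156 and 197, and 51 and 329 without scaling. In Drosha_KO they were 126 and 152, and 5 and 399 without scaling. In Dicer_KO they were 64 and 205 with library totals, 6 and 429 without scaling, 84 and 106 with DESeq2 size factors, 103 and 102 in DESeq2 and 81 and 147 without miR-3963 and miR-6240, and in Ago12_KO 138 and 124, 109 and 179 with TMM factors and 16 and 336 without scaling. Between Dgcr8_KO and Drosha_KO they were 27 and 40, 38 and 35 with TMM factors, 31 and 75 in DESeq2 and 348 and 5 without scaling, and between Dicer_KO and Drosha_KO 65 and 146, 99 and 90 with DESeq2 size factors and 120 and 93 in DESeq2. Of the 7 members called lower in Dicer_KO, 3 passed with DESeq2 size factors, and DESeq2 called 4 members, 3 lower and miR-24-1-5p higher. Between Dgcr8_KO and Drosha_KO, the 67 called entries became 353 without scaling, 106 in DESeq2 and 29 to 94 when 1 library was left out, and the 2 called members became 1 with TMM factors, 6 without scaling and 1 to 3 when 1 library was left out. The entries called were 35 without Dgcr8_KO replicate 1 and 29 without Dgcr8_KO replicate 2, and 1 member was called without either of these or without Drosha_KO replicate 2. Between Dicer_KO and Drosha_KO, 112 of 142 entries were called when only these groups were fitted (211 of 481 in the joint fit), and the 4 called members became 2 with no filter, 1 with only these groups and 1 to 3 when 1 library was left out (1 without either Dicer_KO library or Drosha_KO replicate 2, 2 without either Ago12_KO or WT library or Drosha_KO replicate 1).

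Sign changes were 36 over 61 member fold changes under 20 settings, and in 26 of them neither value passed. Against WT without scaling, the log2 fold change turned to -2.20 for miR-24-3p and -2.54 for miR-24-2-5p in Dgcr8_KO, -0.57 for miR-24-3p and -0.21 for miR-24-1-5p in Drosha_KO, -1.69 for miR-24-1-5p in Dicer_KO, and -0.0055 for miR-27a-5p and -1.86 for miR-24-2-5p in Ago12_KO. Without scaling, Dgcr8_KO against Drosha_KO turned to 2.40 for miR-23a-3p, 2.56 for miR-23b-3p and 1.92 for miR-27b-3p. Between Ago12_KO and Drosha_KO it turned to 2.32 for miR-23a-3p, and between Ago12_KO and Dgcr8_KO to -0.0775 (-0.10 with TMM factors). Other turns were miR-24-2-5p in Dgcr8_KO with TMM factors (-0.21), miR-27a-5p in Dicer_KO with DESeq2 size factors (1.34), in DESeq2 (1.34) and without miR-3963 and miR-6240 (0.84), and miR-27a-5p between Dgcr8_KO and Drosha_KO in DESeq2 (-1.84). For miR-23b-3p between Dicer_KO and Drosha_KO the value turned to 0.30 with TMM factors, 1.21 with DESeq2 size factors, 1.21 in DESeq2 and 0.80 without miR-3963 and miR-6240.

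Leaving out 1 library gave these ranges of log2 fold change across a change of sign. In Dgcr8_KO against WT, miR-24-1-5p ran from -3.10 to 2.40 and miR-24-2-5p from -0.0784 to 0.31. In Dicer_KO against WT, miR-27a-5p ran from -0.22 to 0.15 and miR-24-1-5p from -3.18 to 6.19. Between Dgcr8_KO and Drosha_KO, miR-23a-3p ran from -1.16 to 0.13 and miR-23b-3p from -1.02 to 0.14, between Ago12_KO and Dgcr8_KO, miR-23a-3p from -0.46 to 0.80, between Ago12_KO and Drosha_KO, miR-23a-3p from -1.13 to 0.36, and between Dicer_KO and Drosha_KO, miR-23b-3p from -7.00 to 1.08 and miR-27b-3p from -0.0587 to 0.19. Differences in log2 ratio ran from -2.15 to 0.32 for miR-27b-3p over miR-23b-3p and from -1.99 to 0.82 for miR-27a-3p over miR-23a-3p in Dicer_KO, and from -0.52 to 0.12 for miR-24-3p over miR-23b-3p in Ago12_KO. Differences in share ran from -2.22 to 3.30 percentage points for miR-27a-3p in Dicer_KO, from -9.41 to 8.30 for miR-27a-5p in Ago12_KO and from -0.77 to 0.95 for miR-24-2-5p in Dgcr8_KO. With a pseudocount of 2, the 5p to 3p difference turned to 1.24 for Mir27b in Dgcr8_KO and 0.30 for miR-24-2-5p over miR-24-3p in Dicer_KO. In Drosha_KO that pseudocount moved the difference from 0.17 to 1.87 for Mir27a (limma adjusted p = 0.00181). For Mir27b it moved from 1.14 to 3.05 (limma adjusted p = 8.39e-04). Neither 5p strand had a count there.

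Calls among hairpin pairs in Dgcr8_KO, Drosha_KO, Dicer_KO and Ago12_KO, in that order, were 120, 78, 36 and 79 of 310. Consecutive hairpins alone, 69 pairs, gave 44, 31, 18 and 18. A pseudocount of 2 gave 129 in Drosha_KO and 89 in Dicer_KO, and a mean of at least 100 counts 22 in Dicer_KO. Leaving out 1 library gave 42 to 189, 41 to 155, 0 to 82 and 16 to 142. The lowest counts came without a WT library (for replicates 1 and 2, 42 and 48 pairs in Dgcr8_KO, 43 and 41 pairs in Drosha_KO, 0 pairs each in Dicer_KO, 17 and 16 pairs in Ago12_KO), and the highest without either Drosha_KO library. Without the mutant's own replicates 1 and 2, 61 and 63 pairs passed in Dgcr8_KO, 155 and 150 in Drosha_KO, and 22 and 39 in Ago12_KO. Where limma called 0 hairpin pairs in Dicer_KO, 41 and 43 had an unadjusted p under 0.05. Calls among 72 arm pairs were 1, 13, 37 and 35 in the same order. A pseudocount of 2 gave 7 in Dgcr8_KO and 32 in Drosha_KO, a mean of at least 100 counts left 27 hairpins with 0, 3, 13 and 13 calls, and leaving out 1 library gave 0 to 4, 4 to 19, 15 to 39 and 22 to 42. Without WT replicates 1 and 2, 5 and 4 arm pairs passed in Drosha_KO and 15 and 16 in Dicer_KO, and without WT replicate 2, 22 in Ago12_KO. The limma counts of 0 in Dgcr8_KO, with any 1 Dgcr8_KO, Drosha_KO or WT library left out, stood beside 4 to 13 arm pairs with an unadjusted p under 0.05, and that at the higher minimum beside 1.

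The replicate numbers do not pair the samples: deviations of same-numbered libraries correlated between -0.065 and 0.136, above 0.1 in 1 of 10 pairs of groups. With the replicate number as a block, 2 members were called between Dicer_KO and Drosha_KO in place of 4 (miR-27a-3p and miR-27a-5p were lost), and 3 between Dgcr8_KO and Drosha_KO in place of 2, and the number of members called against WT was the same in all 4 mutants.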
